A study of Mus musculus with 20 samples.

Results

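The DNA replication and repair genes described here are 43 genes whose products copy DNA in S phase, supply its nucleotides, rebuild chromatin behind the fork or mend broken and cross-linked DNA. They were listed by gene symbol and not filtered by their measured levels, but with earlier results of these data known. Counts of called members are therefore not those of a set chosen blind to the data. Each gene was represented by its brightest probe on the array. The array annotation named 42 of the 43 genes directly, while Aunip was found through its transcript accession, since the array calls that probe Clhc1. Of the 39429 probes of the array, 22264 were well above background on every array of some replicated group and were tested, among them those of 42 members. The probe of Brca1 was well above background on only 1 of 20 arrays and was not tested.

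RNA of sorted CD4 T cells was hybridised to 20 single-colour arrays, which fall into 12 groups. All cells came from B6.Cg-Foxp3<tm1Mal> mice, in which GFP reports Foxp3, so that every group carried the reporter allele. By the labels the mice were of both sexes and 8 to 14 weeks old, and each sample was a pool of 8 to 15 mice, while one passage of the study's methods gives smaller pools. An array thus shows a pool and not an animal. Peripheral lymph nodes (pLN) were taken 12 or 25 days after subcutaneous immunisation with KLH in Alum (d12 and d25 p.i.), and gave naive T cells (GFP-PD1-GL7-), Treg cells (GFP+PD1-GL7-), TFH cells (GFP-, PD1 high, GL7+) and TFR cells (GFP+, PD1 high, with or without GL7). Peyer's patches (PP), for which the labels are silent on immunisation and the study's text leaves it unsettled, gave Treg cells, TFR cells and TFH cells that carried or lacked GL7. There were 2 arrays for each pLN d12 and each PP group and 1 array for each d25 group. Nothing in the labels ties the replicates to separate experiments, so the tests measure the spread between these arrays. GL7 is a sialic acid epitope of germinal centre cells, and PD1 marks follicular T cells at high levels.

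DNA is copied once in each cell cycle. In G1 the origin recognition complex, Cdc6 and Cdt1 load the MCM helicase onto origins, and at the start of S phase Mcm10, Cdc45 and GINS turn it into an active fork, where polymerases, the sliding clamp and ligase build both strands. Most of these genes are transcribed at the boundary of G1 and S phase under E2F factors, so their transcripts are abundant in cells that divide and scarce in resting cells such as naive T cells. In sorted bulk RNA a larger share of cells in S phase and more RNA of a gene in each cell cannot be told apart.

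To show what lies before the genes the results turn on, the member with the largest fitted log2 difference between pLN d12 TFR and Treg cells was taken from each of 4 roles (repair, helicase loading, helicase activation and nucleotide supply). That of Cdc6 is only bounded, since no Treg array was above background, and Orc1 lies above its bound. The 250 bases before the RefSeq transcription start (build GRCm38.p6) are shown 5′ to 3′ on the strand of the gene. Capitals mark matches to the motif letters searched. Aunip lies on the plus strand at chr4:134510749-134510998, Cdc6 on the plus strand at chr11:98907901-98908150, Mcm10 on the minus strand at chr2:5012792-5013041 and Tk1 on the minus strand at chr11:117826015-117826264.
Aunip: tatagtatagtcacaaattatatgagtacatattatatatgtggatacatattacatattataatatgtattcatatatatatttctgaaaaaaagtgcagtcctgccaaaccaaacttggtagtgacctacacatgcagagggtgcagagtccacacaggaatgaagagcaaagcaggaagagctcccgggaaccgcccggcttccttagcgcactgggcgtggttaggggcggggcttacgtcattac
Cdc6: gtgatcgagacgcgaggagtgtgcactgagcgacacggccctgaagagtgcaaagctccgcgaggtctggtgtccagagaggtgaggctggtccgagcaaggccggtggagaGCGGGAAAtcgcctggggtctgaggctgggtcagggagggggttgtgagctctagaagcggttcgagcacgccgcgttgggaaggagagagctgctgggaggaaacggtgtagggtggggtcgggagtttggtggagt
Mcm10: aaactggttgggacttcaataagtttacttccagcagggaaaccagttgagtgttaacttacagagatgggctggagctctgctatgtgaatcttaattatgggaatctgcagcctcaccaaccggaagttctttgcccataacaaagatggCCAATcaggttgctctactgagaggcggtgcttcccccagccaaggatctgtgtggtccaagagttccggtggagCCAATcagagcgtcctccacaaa
Tk1: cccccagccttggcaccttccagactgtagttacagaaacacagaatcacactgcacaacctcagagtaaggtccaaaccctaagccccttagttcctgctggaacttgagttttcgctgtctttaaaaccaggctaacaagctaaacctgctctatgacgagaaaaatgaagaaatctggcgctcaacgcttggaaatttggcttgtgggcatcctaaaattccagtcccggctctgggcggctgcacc

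Of the 43 members, 37 had an entry in the RefSeq promoter table, with 46 promoters of 300 bases (250 before and 50 after the start). Mcm4, Gins1, Gins2, Pole, Fancd2 and Exo1 had none. Searched on both strands were the E2F words TTTCCCGC, TTTCGCGC, TTTGCCGC and TTTGGCGC, the CHR element TTTGAA and the CCAAT box, and matches of opposite strands may overlap. An E2F word stood in 15 of 46 member promoters (32.6%), against 744 of all 32851 promoters of the table (2.26%). It stood in Cdc6, 138 bases before the start, and in Orc1, Cdt1, Mcm3, Mcm5, Mcm6, Mcm7, Pola1, Pold1, Pole2, Rfc3, Lig1, Uhrf1, Dnmt1 and Brca2, but in no window of Aunip, Mcm10 or Tk1. The CCAAT letters were found in 28 of 46 member promoters (60.9%), against 37.4% of all, and stood 3 times in the window of Mcm10, once of these after the start and so not shown. The CHR letters were found in 5 of 46 (10.9%), against 17.9% of all. A match describes the letters only.

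The arrays lay on 5 slides of 4 arrays. Slide 1 held replicate 1 and slide 2 replicate 2 of the pLN d12 groups, slide 3 the d25 groups, and slides 4 and 5 replicates 1 and 2 of the PP groups. The labels give more input RNA for slides 1 and 4 than for slides 2, 3 and 5. Input and slide therefore cannot be told apart. All 5 T cell markers checked were well above background on every array. Summed intensity of 5 regulatory T cell markers was 58481 to 109464 in Treg and TFR cells and 963 to 20658 in the other groups. Summed intensity of 13 B cell markers was 31323 to 232716 on slide 4 and 10251 to 21613 on slide 5, and it was also higher in pLN d12 TFH replicate 1 (73811) than in replicate 2 (12345). Summed intensity of 8 germinal centre B cell markers was 15202 to 28569 on slide 4 and 7838 to 19774 on slide 5, that of 8 epithelial markers was 4150 to 9400 on slide 4 and 865 to 2390 on slide 5, and that of 7 myeloid markers was 7710 to 11188 on slide 4 and 970 to 4045 on slide 5. The median local background was 24 to 268, the highest on pLN d12 TFR replicate 2.

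Replication and repair genes were lowest in naive T cells, intermediate in Treg cells and highest in follicular cells of pLN, with TFR above TFH cells. The mean log2 intensity over the 42 tested members was 12.46 and 12.35 in pLN d12 TFR cells, 11.46 and 11.78 in TFH cells, 10.42 and 10.17 in Treg cells and 9.55 and 9.74 in naive T cells. The 4 groups of pLN d12 did not overlap. On the d25 arrays the means were 11.92 in TFR, 11.31 in TFH, 9.82 in Treg and 9.40 in naive T cells, in the same order. In PP the means were 10.84 and 10.76 in TFR cells, 10.32 and 10.75 in GL7- TFH cells, 10.29 and 10.74 in GL7+ TFH cells and 10.07 and 9.63 in Treg cells. Both kinds of PP TFH cells overlapped each other and pLN d12 Treg cells, and PP Treg cells overlapped pLN naive T cells. An F test among the 12 groups (limma, p under 0.001 and adjusted p under 0.005) called 28 of 42 members, while it called 17.3% of all tested probes. The 14 members it did not call were Orc6, Cdc6, Mcm2, Mcm5, Pold1, Pole2, Pcna, Rfc3, Rpa2, Fen1, Tyms, Dnmt1, Brca2 and Chek1.

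**Figure D1:**
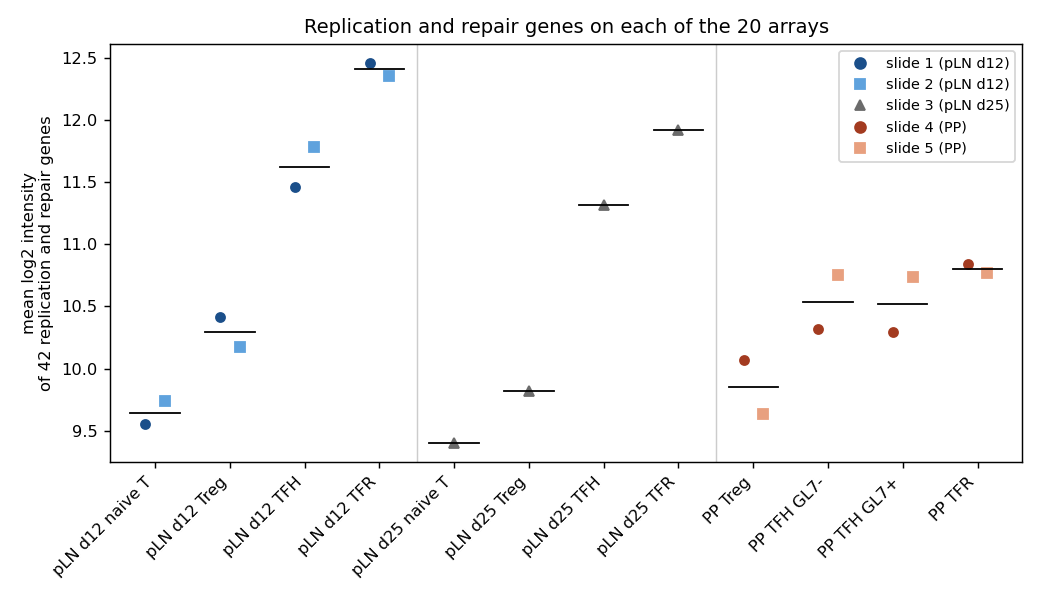
Mean log2 intensity of the 42 tested replication and repair genes (vertical axis) on each of the 20 arrays, by group (horizontal axis). Points are arrays, with symbol and colour by slide, and the black lines are group means. TFR cells of pLN lie highest, at 12.35 to 12.46 on d12 and 11.92 on d25, and PP TFR cells lie at 10.76 to 10.84.

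In pLN d12, TFH cells carried more RNA of most replication and repair genes than naive T cells, and TFR cells more than Treg cells. A member was called where limma gave an adjusted p under 0.05 over all 22264 probes and a log2 difference of at least 1. Between TFH and naive T cells 28 of 42 members were called higher and 0 lower, where 9.27% of all probes were called higher and 5.48% lower, and the median log2 difference of the members was 1.77 (1.69 with 6 members at their lower bounds), against -0.09 over all probes. Between TFR and Treg cells 32 members were called higher and 0 lower, where 5.79% of all probes were called higher and 2.56% lower, with a median of 2.01 against -0.08. The median was 2.02 on slide 1 and 2.02 on slide 2, and 41 of 42 members were higher in TFR cells on each slide. In Treg against naive T cells 5 members were called higher (Rrm2, Tk1, Chaf1a, Rad51b and Aunip), where 2.86% of all probes were called higher and 0.898% lower, with a median of 0.47 against -0.03. That count was 1 without naive T replicate 1 or Treg replicate 1, and 8 without either PP Treg array, which enters through the shared spread. Sums over the marker lists of other cell types also differed between some of these groups. Such a sum does not show which cells carried the RNA, and these may include the sorted T cells. Summed germinal centre B cell markers were 19817 and 13725 in TFH against 6636 and 5783 in naive T cells, but 5778 and 6564 in TFR against 8037 and 9068 in Treg cells. The sums of the B cell markers were 73811 and 12345 in TFH against 25401 and 29008 in naive T cells. In TFR cells those sums were 14490.5 and 10425, against 18993 and 31642 in Treg cells. Summed myeloid markers were 9627 and 7437 in TFH against 1917 and 2357 in naive T cells, and 4676 and 3830 in TFR against 1769 and 2082 in Treg cells. Their part in the differences was not tested. The TFH and Treg comparisons share the naive T arrays, and those of TFR cells share the TFR arrays.

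Between pLN d12 TFR and TFH cells 41 of 42 members were higher in TFR cells, but only Rad51b was called, where 2.81% of all probes were called higher and 2.2% lower. The median log2 difference was 0.80 against 0.01 over all probes, at 1.03 on slide 1 and 0.58 on slide 2. An unadjusted p under 0.05 was found for 20 of 42 members and for 3517 of all 22264 probes. With slide as a fixed block in the model, 29 members were called in TFH against naive T cells (11% of all probes higher), 37 in TFR against Treg cells (7.93% higher), 10 in Treg against naive T cells (4.36% of all probes higher and 1.75% lower) and 2 in TFR against TFH cells, both higher, Rad51b and Pole2 (4.6% of all probes higher). Of those 10, Pole2 was lower in Treg cells and the others were higher.

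**Figure D2:**
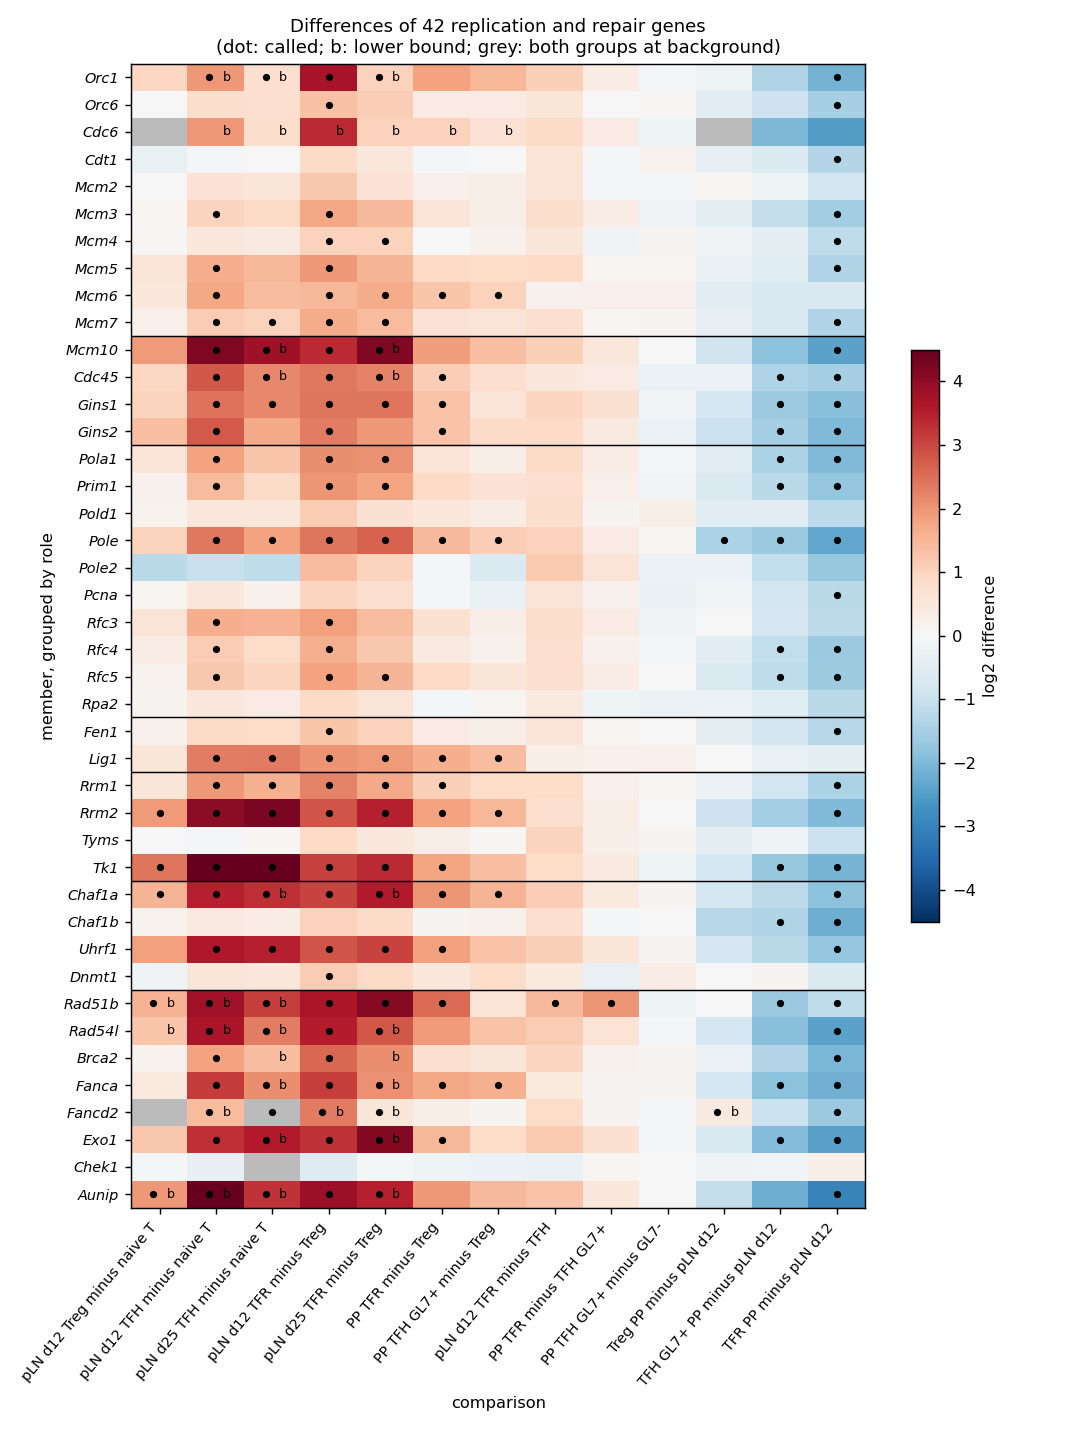
Log2 difference (colour) of the 42 tested members (rows, by role) in 13 comparisons (columns). A dot marks a member called by limma, b marks a difference shown at its lower bound since 1 group was not above background on any array, and grey cells have both groups at background. The columns of TFH against naive T and TFR against Treg cells of pLN are red over most rows, and the column of PP against pLN TFR cells is blue.

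Of the 10 origin and helicase loading genes, 5 rose in TFH against naive T cells and 7 in TFR against Treg cells of pLN d12, with median log2 differences of 1.09 and 1.57. The median was the same with Orc1 and Cdc6 at their lower bounds. Orc1, the largest subunit of the origin recognition complex, read a log2 intensity of 4.32 and 4.32 in naive T, 6.19 and 4.32 in Treg, 7.63 and 8.17 in TFH and 9.14 and 8.83 in TFR cells. Both naive T arrays and Treg replicate 2 were not above background, and every TFH and TFR array was above all of these. The difference between TFR and Treg cells was 3.73 ± 0.63 (SE, adjusted p = 0.00407 by limma), 2.94 on slide 1 and 4.51 on slide 2. TFH cells were at least 3.89-fold above naive T cells (adjusted p = 0.00242), a lower bound that sets the TFH mean against, for each naive T array, the higher of the lowest signal among probes well above background and the signal of the probe itself. All bounds given here follow this rule and hold only under it. On pLN d12 Treg replicate 1 the lowest such signal was 20, the floor, so the probe's own signal was used there.

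Cdc6, which with Cdt1 puts the MCM ring onto the origin, had a larger spread. Its log2 intensities were 4.32 and 4.59 in naive T, 4.32 and 5.53 in Treg, 6.83 and 8.96 in TFH and 8.31 and 9.22 in TFR cells, and neither naive T nor Treg arrays were above background. By the rule given for Orc1, TFR cells were at least 10.2-fold above Treg cells, whose replicate 1 stood at the floor. TFH cells were at least 3.88-fold above naive T cells. Neither difference passed the test (adjusted p = 0.0702 and 0.0757), the TFH replicates being 2.12 apart on the log2 scale. With slide as a fixed block both were called (adjusted p = 0.00114 and 0.0011). A dimmer probe of Cdc6 was called in TFR against Treg cells, with a log2 difference of 2.67.

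Cdt1, the licensing factor that works beside Cdc6, was at 12.97 and 12.77 in naive T, 12.58 and 12.46 in Treg, 12.71 and 12.83 in TFH and 13.56 and 13.21 in TFR cells. Both TFR arrays were highest, and the other groups lay within the range of 12.46 to 12.97. The log2 difference between TFR and Treg cells, 0.86 ± 0.16 (adjusted p = 0.00671), was the smallest of the role and under the minimum of 1. TFH cells differed from naive T cells by -0.10 ± 0.16 (95% interval -0.46 to 0.26). Among the subunits of the MCM ring the log2 difference between TFR and Treg cells ran from 1.02 for Mcm4 to 1.96 for Mcm5, and all but Mcm2 (1.20 ± 0.46, adjusted p = 0.141, but 0.00288 with slide as a block) were called. Orc6, the smallest subunit of the origin recognition complex, was called at 1.32 ± 0.31 (adjusted p = 0.0199).

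All 4 genes that activate the helicase were called in both comparisons, with median log2 differences of 2.79 in TFH against naive T cells and 2.38 in TFR against Treg cells. Mcm10, which is needed to start the loaded helicase, read 6.35 and 7.24 in naive T, 8.96 and 8.45 in Treg, 10.85 and 11.14 in TFH and 12.12 and 12.01 in TFR cells. The 4 groups did not overlap, and the difference between TFR and Treg cells was 3.36 ± 0.55 on the log2 scale, 10.3-fold (adjusted p = 0.00347). Between TFH and naive T cells it was 4.20 ± 0.55, 18.4-fold (adjusted p = 0.000402).

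Gins1, a subunit of the GINS complex of the active helicase, read 8.43 and 8.58 in naive T, 9.66 and 9.33 in Treg, 10.80 and 11.08 in TFH and 11.97 and 11.83 in TFR cells, again without overlap of groups. Its replicates were close, and the difference between TFR and Treg cells of 2.40 ± 0.20 had an adjusted p of 0.000197. Gins2, another subunit of GINS and the smallest difference of this role, read 8.71 and 9.62 in naive T, 10.81 and 10.26 in Treg, 11.86 and 12.002 in TFH and 12.97 and 12.70 in TFR cells. TFR cells were 2.30 ± 0.37 above Treg cells (adjusted p = 0.00303), and all groups were separate. Cdc45, the partner of GINS, differed by 2.36 ± 0.27 (adjusted p = 0.000626).

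Of the 10 genes for polymerases, the clamp, its loader and single-strand binding, 6 rose in each comparison, with medians of 1.19 in TFH against naive T cells and 1.71 in TFR against Treg cells. Pole, the catalytic subunit of the leading-strand polymerase epsilon, read 9.18 and 9.004 in naive T, 10.29 and 9.92 in Treg, 11.24 and 11.69 in TFH and 12.57 and 12.43 in TFR cells. The groups were ordered naive T, Treg, TFH and TFR without overlap, and TFR cells were 2.40 ± 0.32 above Treg cells, 5.27-fold (adjusted p = 0.00128). Pola1, the catalytic subunit of the polymerase that starts new strands with primase, read 8.35 and 9.09 in naive T, 9.22 and 9.37 in Treg, 10.09 and 10.97 in TFH and 11.29 and 11.50 in TFR cells. TFR cells lay above TFH cells, but TFH replicate 1 was 0.88 below replicate 2, and the difference between TFR and Treg cells was 2.10 ± 0.34 (adjusted p = 0.00342).

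Rpa2, a subunit of the complex that coats single-stranded DNA, read 10.83 and 11.09 in naive T, 10.999 and 11.14 in Treg, 11.08 and 11.87 in TFH and 11.77 and 12.08 in TFR cells. TFR and TFH cells overlapped, and the difference between TFR and Treg cells, 0.85 ± 0.56 with an interval of -0.39 to 2.10, did not pass the test (adjusted p = 0.437). Pcna, the sliding clamp, read 13.86 and 14.47 in naive T, 14.07 and 14.43 in Treg, 14.17 and 15.14 in TFH and 15.09 and 15.37 in TFR cells. TFR cells were 0.98 ± 0.34 above Treg cells (adjusted p = 0.0993). Pole2, the second subunit of polymerase epsilon, read 10.704 and 10.695 in naive T, 9.38 and 9.59 in Treg, 9.25 and 10.16 in TFH and 10.82 and 10.92 in TFR cells, so that naive T cells were level with TFR cells and above TFH and Treg cells. It was the member with the lowest log2 difference between TFH and naive T cells, -0.999 ± 0.54 (adjusted p = 0.258).

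The other genes of the role differed between TFR and Treg cells by 1.999 ± 0.22 for Prim1, the catalytic subunit of primase, and 1.14 ± 0.40 for Pold1, the catalytic subunit of polymerase delta (adjusted p = 0.000487 and 0.103). Of the clamp loader subunits, Rfc3, Rfc4 and Rfc5 differed by 1.85 ± 0.46, 1.60 ± 0.24 and 1.82 ± 0.23 (adjusted p = 0.0271, 0.00223 and 0.00108). The 4 genes of the role that were not called were Pold1, Pole2, Pcna and Rpa2. With slide as a fixed block Pold1 and Pole2 were called as well (adjusted p = 0.00588 and 0.00356).

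Both genes of Okazaki fragment joining rose in TFR against Treg cells, and Lig1 also in TFH against naive T cells. Lig1, the ligase that seals the fragments, read 11.51 and 11.49 in naive T, 12.18 and 11.92 in Treg, 14.01 and 13.57 in TFH and 14.26 and 13.89 in TFR cells. TFH and TFR cells overlapped, naive T and Treg cells were below both, and TFR cells were 2.02 ± 0.34 above Treg cells, 4.06-fold (adjusted p = 0.00397). Fen1, which trims the flap before ligation, read 12.32 and 11.98 in naive T, 12.45 and 12.24 in Treg, 12.76 and 13.25 in TFH and 13.50 and 13.66 in TFR cells. Its difference between TFR and Treg cells was 1.24 ± 0.28 (adjusted p = 0.0175), and between TFH and naive T cells 0.85 ± 0.28 (adjusted p = 0.0581).

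In nucleotide supply, 3 of 4 genes rose in both comparisons. Tk1, the thymidine kinase of the salvage route, read 7.93 and 8.72 in naive T, 10.996 and 10.43 in Treg, 12.73 and 13.20 in TFH and 13.83 and 13.74 in TFR cells. No groups overlapped, and TFH cells were 4.64 ± 0.41 above naive T cells, 25-fold (adjusted p = 3.6e-05), while TFR cells were 3.07 ± 0.41 above Treg cells, 8.4-fold (adjusted p = 0.0013). Tk1 was also called in Treg against naive T cells, at 2.39 ± 0.41 (adjusted p = 0.00788).

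Rrm2, the small subunit of ribonucleotide reductase, read 10.59 and 11.01 in naive T, 12.99 and 12.45 in Treg, 14.78 and 14.88 in TFH and 15.63 and 15.50 in TFR cells, in the same order and without overlap. The differences were 4.03 ± 0.40 between TFH and naive T cells and 2.85 ± 0.40 between TFR and Treg cells (adjusted p = 7.2e-05 and 0.00175). Rrm1, the large subunit of the reductase, was called at 2.23 ± 0.27 between TFR and Treg cells (adjusted p = 0.000793). Tyms, which makes thymidylate from deoxyuridylate, was the exception. It read 8.82 and 8.07 in naive T, 8.78 and 8.17 in Treg, 8.43 and 8.31 in TFH and 9.59 and 9.13 in TFR cells. TFR cells were above every other array, but naive T, Treg and TFH cells overlapped, and the difference of 0.89 ± 0.35 between TFR and Treg cells was not called (adjusted p = 0.157).

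Of the 4 genes of chromatin assembly and copying of DNA methylation, 2 rose in TFH against naive T cells and 3 in TFR against Treg cells. Chaf1a, the large subunit of the factor that lays down histones behind the fork, read 6.73 and 7.29 in naive T, 8.81 and 8.29 in Treg, 10.38 and 10.60 in TFH and 11.75 and 11.46 in TFR cells. The groups were separate, and TFR cells were 3.05 ± 0.36 above Treg cells (adjusted p = 0.000702). Uhrf1, which binds half-methylated DNA and brings in Dnmt1, read 8.28 and 9.14 in naive T, 10.69 and 10.43 in Treg, 11.95 and 12.67 in TFH and 13.34 and 13.45 in TFR cells, with the same order and a difference of 2.84 ± 0.47 (adjusted p = 0.00353).

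Chaf1b, the partner of Chaf1a, read 12.85 and 12.50 in naive T, 13.04 and 12.59 in Treg, 13.21 and 12.98 in TFH and 14.13 and 13.60 in TFR cells. TFR cells were highest and the other groups lay between 12.50 and 13.21. The log2 difference between TFR and Treg cells was 1.05 ± 0.31 and missed the threshold (adjusted p = 0.0554), although a dimmer probe of the gene passed it, as did this probe with slide as a fixed block (adjusted p = 0.000984). Dnmt1, the maintenance methyltransferase, differed by 1.13 ± 0.27 (adjusted p = 0.0221).

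Of the 8 tested repair and checkpoint genes, 7 rose in each comparison, with the largest medians of the 7 roles, 3.22 in TFH against naive T cells and 3.33 in TFR against Treg cells (3.19 with Fancd2 at its lower bound). Aunip, a partner of aurora kinase A with a reported part in homologous recombination, read 4.94 and 5.64 in naive T, 8.45 and 7.34 in Treg, 10.35 and 10.60 in TFH and 11.87 and 11.63 in TFR cells (probe at chr4:134079662-134079721, mm9, from the array annotation). Naive T cells were not above background, and TFH cells were at least 23.1-fold higher (adjusted p = 0.000179). TFR cells were 3.86 ± 0.60 above Treg cells (adjusted p = 0.00268), 3.42 on slide 1 and 4.29 on slide 2.

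Rad51b, which acts in homologous recombination, read 5.70 and 5.66 in naive T, 7.74 and 7.62 in Treg, 10.09 and 9.70 in TFH and 11.12 and 11.56 in TFR cells (probe at chr12:80915000-80915059, mm9). The groups did not overlap, and naive T cells were not above background. TFR cells were 3.66 ± 0.27 above Treg cells, 12.6-fold (adjusted p = 0.000144), and TFH cells at least 13.7-fold above naive T cells (adjusted p = 6.31e-06). TFR cells were also 1.44 ± 0.27 above TFH cells, 2.72-fold (adjusted p = 0.0112), 1.02 on slide 1 and 1.86 on slide 2. That call was lost without TFH replicate 2, without TFR replicate 2 and in a fit of the compared groups alone.

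Fancd2, which is ubiquitinated when forks meet cross-linked DNA, read 4.32 and 4.32 in naive T, 5.24 and 4.36 in Treg, 7.40 and 7.34 in TFH and 8.42 and 7.99 in TFR cells (probe at chr6:113541170-113541229, mm9). Neither naive T nor Treg arrays were above background, so TFR cells were at least 5.06-fold above Treg cells and TFH cells at least 2.69-fold above naive T cells (adjusted p = 0.000248 and 9.39e-05). Rad54l, a motor protein of homologous recombination, Exo1, a nuclease that resects ends, and Fanca, of the Fanconi core complex, differed between TFR and Treg cells by 3.55 ± 0.56, 3.27 ± 0.37 and 3.12 ± 0.46, and all were called. Brca2, which acts in homologous recombination, differed by 2.58 ± 0.52 (adjusted p = 0.00966).

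Chek1, the checkpoint kinase that holds the cycle when forks stall, was the only member lower in TFR than in Treg cells. It read 7.70 and 6.75 in naive T, 7.13 and 7.17 in Treg, 6.94 and 6.78 in TFH and 6.72 and 6.42 in TFR cells. The levels were low, TFR replicate 2 was not above background, and the difference of -0.58 ± 0.31 had an interval of -1.28 to 0.12 (adjusted p = 0.323). No comparison called Chek1.

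**Figure D3:**
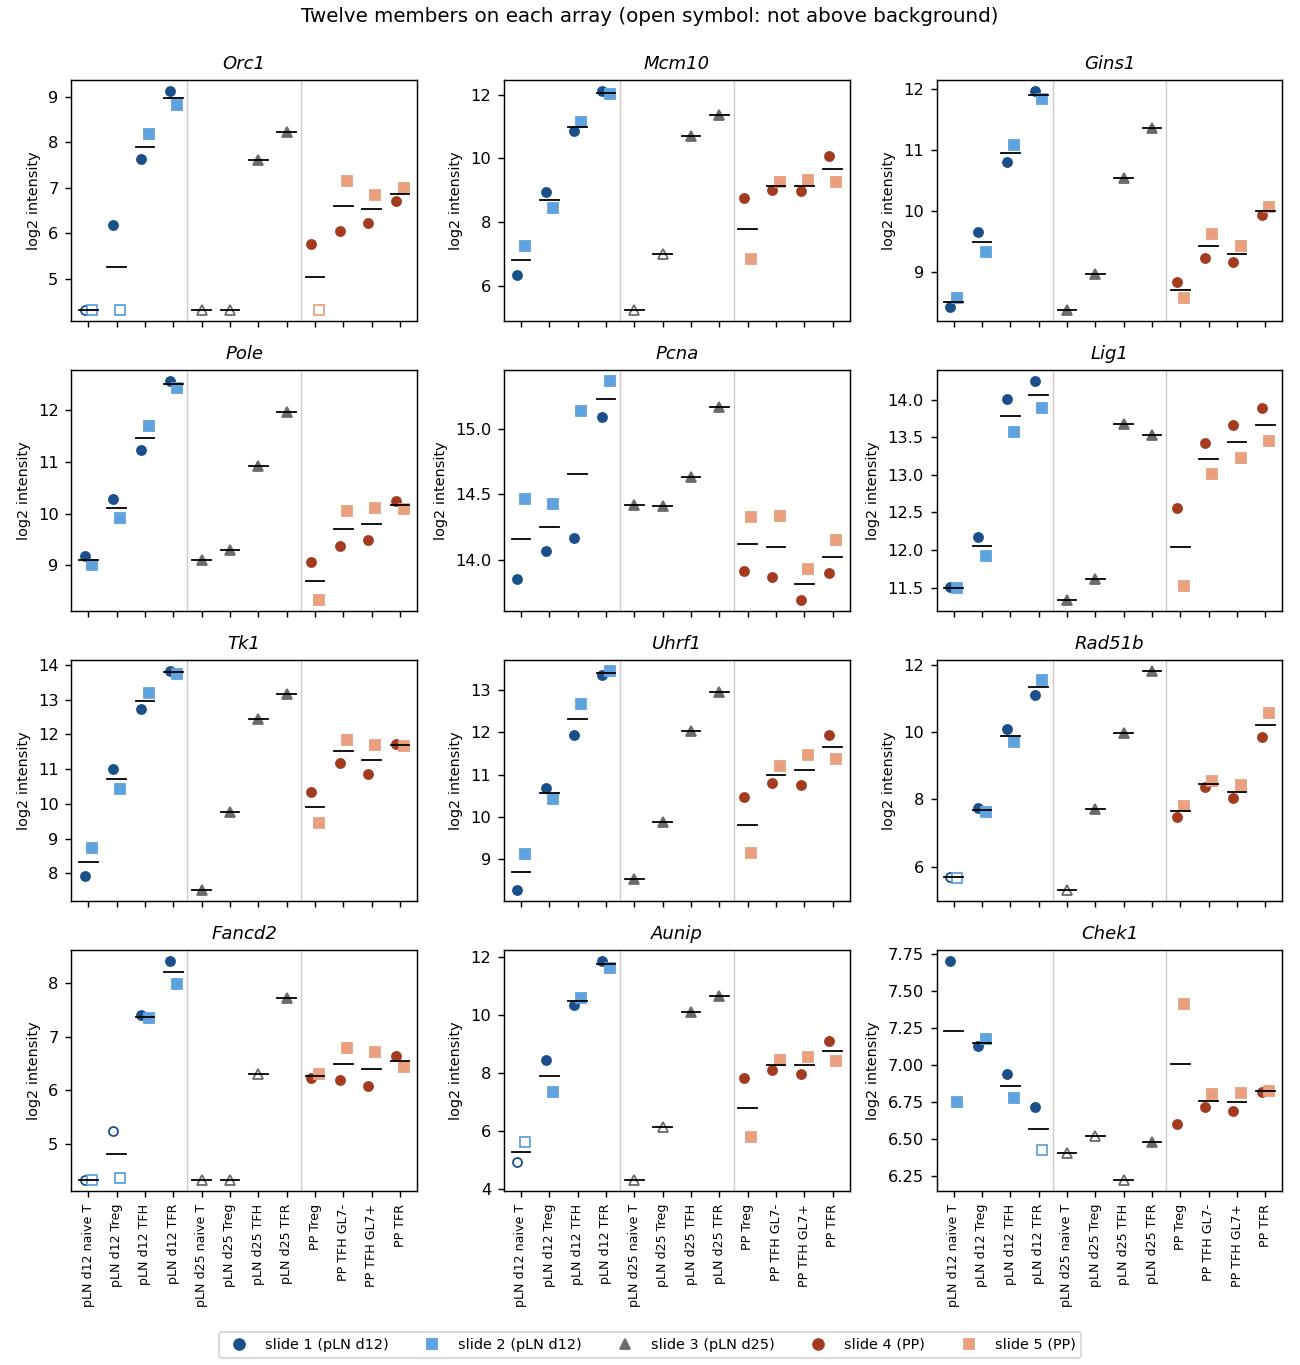
Log2 intensity (vertical axes, each panel with its own scale that does not start at 0) of 12 members on each array, by group (horizontal axis), with open symbols where the probe was not above background and black lines at group means. Both pLN d12 TFR arrays lie above all other pLN d12 arrays in each panel but those of Lig1, Pcna and Chek1.

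At d25 each group was 1 array, so that the tests take their spread from the groups of 2 and the d25 values have no replicate check of their own. Between TFH and naive T cells 18 members were called higher (6.15% of all probes) and 0 lower (2.57%), with a median log2 difference of 1.47 against -0.07 over all probes. Between TFR and Treg cells 23 were called higher (4.05% of all probes) and 0 lower (1.25%), with a median of 1.74 against -0.05. In 11 members of each d25 comparison 1 group was not above background and the difference is only bounded. With these members at their bounds the medians were 1.31 and 1.52. Fancd2 and Chek1 were at background in both TFH and naive T cells, and Chek1 also in Treg cells. They had no bound there and stayed at their fitted differences.

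Levels of the leading members at d25 were as follows. Mcm10 read 5.24 in naive T, 6.998 in Treg, 10.695 in TFH and 11.35 in TFR cells, with naive T and Treg cells not above background. Tk1 read 7.53 in naive T, 9.77 in Treg, 12.43 in TFH and 13.15 in TFR cells. Rad51b read 5.31 in naive T, 7.73 in Treg, 9.98 in TFH and 11.83 in TFR cells, the only one of these 3 whose TFR array at d25 was above both TFR arrays of d12. The naive T array of Rad51b was not above background. Aunip read 4.32 in naive T, 6.14 in Treg, 10.11 in TFH and 10.66 in TFR cells, with naive T and Treg cells not above background. Orc1, Cdc6 and Fancd2 at d25 read 8.22, 8.204 and 7.72 in TFR cells and 4.32 each in Treg cells, the floor of the scale. The TFH and the naive T array were both at background for Fancd2 at d25, so its call there carries no fold.

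Genes of the fork and of nucleotide supply kept this order. Gins1 read 8.38 in naive T, 8.96 in Treg, 10.53 in TFH and 11.36 in TFR cells. Pole read 9.10 in naive T, 9.30 in Treg, 10.92 in TFH and 11.97 in TFR cells. Rrm2 read 10.13 in naive T, 11.55 in Treg, 14.35 in TFH and 15.04 in TFR cells. In each of these TFR cells were highest and naive T cells lowest. Lig1 read 11.34 in naive T, 11.61 in Treg, 13.67 in TFH and 13.53 in TFR cells, with TFH slightly above TFR cells, and Chek1 read 6.41 in naive T, 6.52 in Treg, 6.22 in TFH and 6.48 in TFR cells, above background in TFR cells alone. Between d25 and d12 limma called 0 members in naive T, TFH, Treg and TFR cells, where at most 0.0225% of all probes were called in 1 direction. The numbers with an unadjusted p under 0.05 were 1, 1, 6 and 2 of 42 members, where 258, 635, 780 and 812 of all 22264 probes had one. The medians were -0.11, -0.29, -0.26 and -0.52. Each day lay on slides of its own, so that slide and day are confounded and cannot be told apart.

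Between TFR and Treg cells of PP limma called 14 of 42 members higher and 0 lower, where 6.23% of all probes were called higher and 3.02% lower, with a median log2 difference of 0.89 against -0.05 over all probes. The 14 were Mcm6 of the helicase, its activators Cdc45, Gins1 and Gins2, the polymerase gene Pole, the ligase gene Lig1, the nucleotide genes Rrm1, Rrm2 and Tk1, Chaf1a and Uhrf1 of chromatin, and Rad51b, Fanca and Exo1 of repair. All 14 were also called in pLN d12, as were 32 of the 42 members there. The same overlap over all probes is not given, so this one is not read as a trait of the members. The median was 0.73 on slide 4 and 1.01 on slide 5, with 39 and 37 members higher in TFR cells. Without slide 4, 8 members were called and the median was 1.01, and with slide as a fixed block 17 were called (8.58% of all probes higher), the added ones being Mcm10, Rad54l and Aunip. With only the compared groups in the fit 0 were called, where few degrees of freedom are left. The share of all probes called is not given for that fit or for those without an array or slide. Leaving out TFR replicate 1 or Treg replicate 2 left 3 calls, leaving out TFR replicate 2 left 7, and leaving out Treg replicate 1 gave 18.

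PP Treg cells differed between the slides. Mcm10 read 8.77 and 6.83 in Treg, 8.99 and 9.25 in GL7- TFH, 8.97 and 9.32 in GL7+ TFH and 10.09 and 9.25 in TFR cells. Treg replicate 1 was 1.94 above replicate 2, and the difference between TFR and Treg cells of 1.87 ± 0.55 missed the test (adjusted p = 0.0537) but passed with slide as a fixed block (adjusted p = 0.0244). Tk1 read 10.35 and 9.46 in Treg, 11.18 and 11.84 in GL7- TFH, 10.85 and 11.70 in GL7+ TFH and 11.71 and 11.67 in TFR cells, and its difference of 1.79 ± 0.41 passed (adjusted p = 0.0184). On slide 4, where B cell, germinal centre B cell and epithelial markers were higher, Treg cells were closer to TFR cells for both genes (1.32 against 2.42 for Mcm10 and 1.36 against 2.21 for Tk1). Summed B cell markers on slide 4 were 232716 in TFR and 151798 in Treg cells, against 57516 in GL7+ and 31323 in GL7- TFH cells. On slide 5 those sums were 10251 in TFR and 13659 in Treg cells. What these marker levels had to do with the difference between the slides was not tested.

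Rrm2 read 12.47 and 11.09 in Treg, 13.21 and 13.36 in GL7- TFH, 13.04 and 13.53 in GL7+ TFH and 13.88 and 13.31 in TFR cells. Chaf1a read 8.31 and 7.23 in Treg, 9.12 and 9.26 in GL7- TFH, 9.15 and 9.47 in GL7+ TFH and 10.03 and 9.46 in TFR cells. Uhrf1 read 10.47 and 9.15 in Treg, 10.79 and 11.20 in GL7- TFH, 10.76 and 11.46 in GL7+ TFH and 11.95 and 11.36 in TFR cells. In each, both TFR arrays were above both Treg arrays, and Treg replicate 2 was lowest of all 8. The differences between TFR and Treg cells were 1.82 ± 0.40, 1.97 ± 0.36 and 1.84 ± 0.47, and all were called. Lig1 read 12.56 and 11.53 in Treg, 13.43 and 13.01 in GL7- TFH, 13.66 and 13.23 in GL7+ TFH and 13.89 and 13.45 in TFR cells, with Treg cells below all others and a difference of 1.63 ± 0.34 (adjusted p = 0.011).

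Gins1 read 8.84 and 8.57 in Treg, 9.23 and 9.62 in GL7- TFH, 9.16 and 9.43 in GL7+ TFH and 9.93 and 10.07 in TFR cells. Gins2 read 10.02 and 9.08 in Treg, 10.76 and 10.64 in GL7- TFH, 10.31 and 10.54 in GL7+ TFH and 11.08 and 10.61 in TFR cells. Pole read 9.05 and 8.33 in Treg, 9.37 and 10.04 in GL7- TFH, 9.49 and 10.10 in GL7+ TFH and 10.25 and 10.08 in TFR cells. TFR cells were above Treg cells without overlap for all 3, by 1.29 ± 0.20, 1.29 ± 0.37 and 1.47 ± 0.32 (adjusted p = 0.00239, 0.0462 and 0.0136). Orc1 read 5.76 and 4.32 in Treg, 6.05 and 7.16 in GL7- TFH, 6.22 and 6.85 in GL7+ TFH and 6.72 and 6.998 in TFR cells, where Treg replicate 2 was not above background. Cdc6 read 4.32 and 5.11 in Treg, 4.63 and 7.61 in GL7- TFH, 4.48 and 7.28 in GL7+ TFH and 5.16 and 7.35 in TFR cells. For Cdc6 neither Treg array was above background, and only 1 of 2 arrays was in each kind of TFH cells. In TFR cells and both kinds of TFH cells the slide 5 array was the higher one for each gene, and neither Orc1 nor Cdc6 was called (adjusted p = 0.0991 and 0.553).

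Cdt1, Rpa2, Fen1 and Chaf1b were not called between PP TFR and Treg cells. Cdt1 read 12.18 and 12.14 in Treg, 11.93 and 12.08 in GL7- TFH, 12.10 and 12.22 in GL7+ TFH and 12.08 and 12.05 in TFR cells, all within 0.29 on the log2 scale. Rpa2 read 10.28 and 11.36 in Treg, 10.62 and 11.74 in GL7- TFH, 10.32 and 11.51 in GL7+ TFH and 10.14 and 11.31 in TFR cells and had all slide 5 arrays above all slide 4 arrays. Fen1 read 11.82 and 12.001 in Treg, 11.88 and 12.54 in GL7- TFH, 11.88 and 12.49 in GL7+ TFH and 12.21 and 12.37 in TFR cells. Chaf1b read 11.89 and 11.20 in Treg, 11.81 and 11.65 in GL7- TFH, 11.86 and 11.62 in GL7+ TFH and 11.99 and 11.37 in TFR cells. For Fen1 both TFR arrays were above both Treg arrays by less than the replicates of the TFH groups differed, and for Chaf1b the groups overlapped. The differences between TFR and Treg cells were -0.10 ± 0.16 for Cdt1, -0.09 ± 0.56 for Rpa2, 0.38 ± 0.28 for Fen1 and 0.13 ± 0.31 for Chaf1b. 

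The remaining members given on every array were not called in PP either. Pola1 read 8.84 and 8.81 in Treg, 8.86 and 9.48 in GL7- TFH, 8.85 and 9.35 in GL7+ TFH and 9.34 and 9.51 in TFR cells. Tyms read 8.31 and 7.85 in Treg, 8.05 and 7.93 in GL7- TFH, 8.39 and 7.87 in GL7+ TFH and 8.75 and 8.01 in TFR cells. Chek1 read 6.60 and 7.41 in Treg, 6.71 and 6.80 in GL7- TFH, 6.69 and 6.81 in GL7+ TFH and 6.82 and 6.83 in TFR cells. For Pola1 TFR and TFH cells overlapped, for Tyms the TFR array of slide 5 was below the Treg array of slide 4, and for Chek1 the highest array was a Treg array.

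Between GL7+ TFH and Treg cells of PP 6 members were called higher (Mcm6, Pole, Lig1, Rrm2, Chaf1a and Fanca) and 0 lower, where 5.26% of all probes were called higher and 4.62% lower. The median log2 difference was 0.59 against 0.03 over all probes, at 0.18 on slide 4 and 0.90 on slide 5. The count fell to 0 when GL7+ TFH replicate 1 or 2 or Treg replicate 2 was left out, and rose to 11 without Treg replicate 1, while leaving out arrays of other groups gave 2 to 6. The comparison shares its Treg arrays with that of TFR cells.

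No replication or repair gene passed the test between GL7+ and GL7- TFH cells of PP. limma called 0 of 42 members, where 0.00898% of all probes were called lower and 0 higher. An unadjusted p under 0.05 was found for 0 members and for 254 of all 22264 probes. The methods' t-test gave 1 member under 0.05 and 0 after Benjamini-Hochberg adjustment, where 556 of all probes were under 0.05 and 1 after adjustment. The log2 differences ran from -0.28 for Pcna (interval -1.04 to 0.47) to 0.33 for Dnmt1 (interval -0.26 to 0.93), with a median of -0.01. Differences within such intervals are not excluded, and a log2 difference under 1 could not be called. In simulated data for another comparison of 2 against 2 arrays, pLN d12 TFR against Treg cells, few changes of 1 were recovered (0.5%). Of true log2 changes of 1.5, 41% were recovered there. The simulated data had 200 changed probes of 22264 and noise independent of slide. Recovery meant an adjusted p under 0.05, without the minimum difference asked of members.

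Rad51b was the only member called between TFR and GL7+ TFH cells of PP, where 2.34% of all probes were called higher and 1.09% lower. It read 7.49 and 7.82 in Treg, 8.36 and 8.55 in GL7- TFH, 8.03 and 8.44 in GL7+ TFH and 9.85 and 10.57 in TFR cells. Both TFR arrays were above all other PP arrays, by 1.98 ± 0.27 against GL7+ TFH cells, 3.93-fold (adjusted p = 0.0024), 1.81 on slide 4 and 2.14 on slide 5. It was 2.56 ± 0.27 above Treg cells, 5.89-fold (adjusted p = 0.000244), the largest difference of a member there. GL7+ TFH cells differed from Treg cells by 0.58 ± 0.27 (adjusted p = 0.23). The median of the 42 members between TFR and TFH cells was 0.24, at 0.50 on slide 4 and -0.01 on slide 5, where 20 members were higher and 22 lower in TFR cells.

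**Figure D4:**
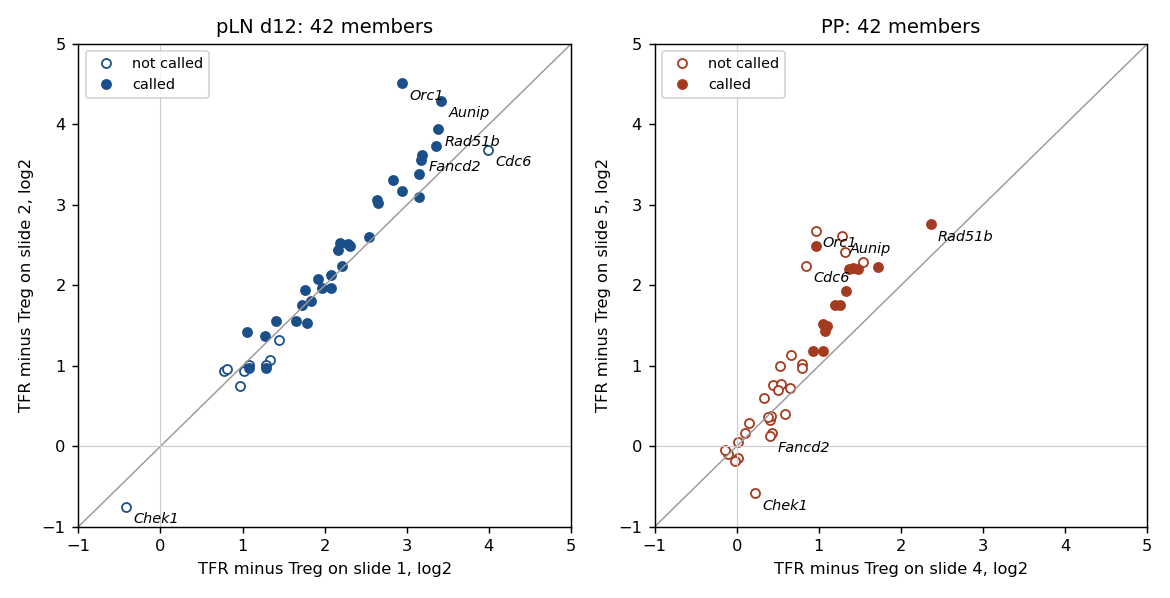
Log2 difference between TFR and Treg cells of the 42 members on each slide, with pLN d12 on the left (slide 1 horizontal, slide 2 vertical) and PP on the right (slide 4 horizontal, slide 5 vertical). Filled points were called by limma, open points were not, and the line marks equal values. The pLN points follow the line, with medians of 2.02 and 2.02, while many PP points lie above it, with medians of 0.73 and 1.01.

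Follicular cells of PP carried less RNA of replication and repair genes than those of pLN d12. In TFR cells 31 of 42 members were called lower in PP and 0 higher, where 5.39% of all probes were called lower and 5.74% higher, and the median log2 difference was -1.62 against 0.00 over all probes. In TFH cells (GL7+ in both tissues) 13 were called lower and 0 higher, where 2.18% of all probes were called lower and 2.36% higher, with a median of -1.14 against 0.03. Among called members the largest falls in TFR cells were those of Aunip, -2.99 ± 0.60 (7.96-fold lower, adjusted p = 0.00837), Exo1, -2.45 ± 0.37, Mcm10, -2.40 ± 0.55, Rad54l, -2.40 ± 0.56, and Pole, -2.34 ± 0.32. The 11 members that were not called lower included Lig1 (-0.40 ± 0.34), Mcm6 (-0.69 ± 0.29), Dnmt1 (-0.66 ± 0.27) and Chek1 (0.25 ± 0.31).

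Each tissue lay on slides of its own, so tissue and slide cannot be told apart. With slide as a random block 17 members were called lower in TFR cells (4.11% of all probes), 3 in TFH cells (Gins1, Chaf1b and Rad51b, against 0.75% of all probes) and 0 in Treg cells (0.0943% of all probes). Without slide 4 the counts were 26 in TFR cells and 0 in TFH cells, with medians of -1.73 and -0.85. The share of all probes called is not given for the fits without a slide or an array. Leaving out pLN d12 TFR replicate 1 left 14 calls in TFR cells. In TFH cells 1 call was left without PP GL7+ replicate 1, 2 without pLN d12 TFH replicate 2, and 5 without pLN d12 TFH replicate 1 or PP GL7+ replicate 2. Slide 4 was also the slide with higher sums of B cell and epithelial markers, whose part in these differences was not tested.

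In Treg cells 2 members were called between the tissues. The median log2 difference between PP and pLN d12 was -0.42 against -0.05 over all probes, with 1 member called higher (1.82% of all probes) and 1 lower (0.422%). Pole was called lower, at -1.41 ± 0.32 and the edge of the threshold (adjusted p = 0.05), and 23 of 24 alternatives did not call it. Fancd2 was called higher. It read 6.23 and 6.30 in Treg, 6.20 and 6.80 in GL7- TFH, 6.08 and 6.72 in GL7+ TFH and 6.64 and 6.43 in TFR cells in PP, all above background, where both pLN d12 Treg arrays were not. PP Treg cells were at least 1.32-fold above those of pLN (adjusted p = 0.0413), and 18 of 24 alternatives lost the call.

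The test of whether the difference between TFR and Treg cells itself differed between the tissues called Fancd2 alone, where 0.202% of all probes were called lower and 0.346% higher. On simulated arrays, with the same settings as above, this test recovered 0% of true log2 changes of 1 or 1.5 and 39% of those of 2. The lack of a call for other members therefore does not show that they were alike in both tissues. Fancd2 had a fitted difference of 3.40 ± 0.32 in pLN d12, but its difference in PP was 0.27 ± 0.32 (interval -0.44 to 0.98), and the difference of both was -3.13 ± 0.45 (adjusted p = 0.0168). With the pLN difference at its lower bound the difference of both was -2.07. Levels of this probe were low, at most 8.42, and the call was lost without slide 4 and when pLN d12 TFR replicate 1, pLN d12 Treg replicate 2, either PP Treg array or PP TFR replicate 2 was left out.

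Over all members the median of that difference was -1.08 against 0.03 over all probes. An unadjusted p under 0.05 was found for 17 of 42 members and for 1818 of all 22264 probes. With slide as a fixed block 12 members were called lower (2.3% of all probes) and 0 higher (2.28%), namely Mcm7, Cdc45, Gins1, Pola1, Prim1, Pole2, Pcna, Rfc3, Rfc4, Rad51b, Brca2 and Fancd2. For the difference between TFR and TFH cells 0 members were called as different between the tissues (0.472% of all probes higher, 0.139% lower). An unadjusted p under 0.05 was found for 3 of 42 members and for 1444 of all 22264 probes. For Rad51b that difference was 0.53 ± 0.39 (interval -0.32 to 1.39).

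**Figure D5:**
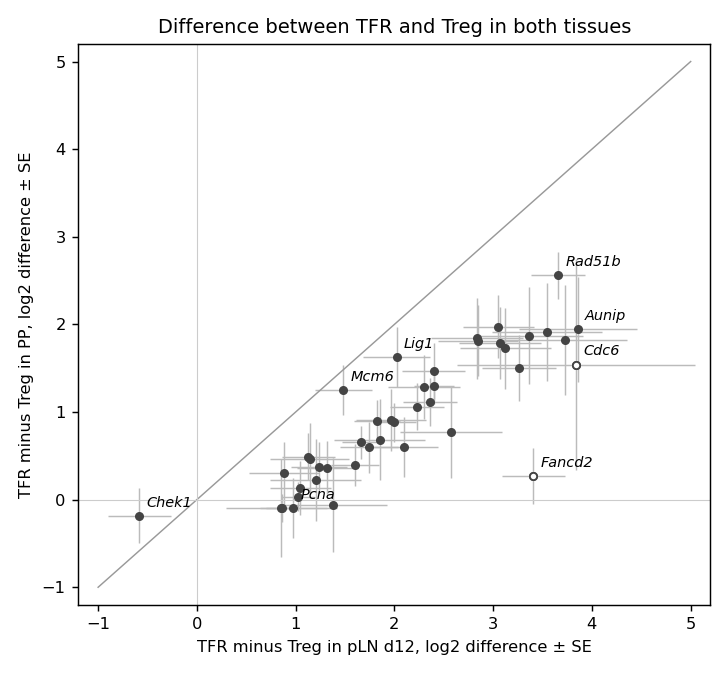
Log2 difference of TFR against Treg cells for the 42 members, with pLN d12 on the horizontal and PP on the vertical axis, with SE bars from limma, open points where Treg cells of a tissue were not above background, and the line of equal values. All points but that of Chek1 lie below the line, with Fancd2 at a fitted 3.40 against 0.27.

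Genes of the same processes that are not members were counted for context. Of 42 tested other replication genes, 15 were called higher and 0 lower in pLN d12 TFR against Treg cells, with a median log2 difference of 0.87. The largest were Clspn, which passes the checkpoint signal at stalled forks (3.92 ± 0.74, adjusted p = 0.00693), Dna2, a nuclease and helicase (2.66 ± 0.36, adjusted p = 0.00131), and Recql4, a helicase (2.48 ± 0.37, adjusted p = 0.00208). Of 50 other repair genes, 13 were called higher, among them Rad54b (3.47 ± 0.44) and Brip1 (3.32 ± 0.59), and Xpc, a damage sensor of nucleotide excision repair, was called lower (-1.06 ± 0.27, adjusted p = 0.0324). Their median was 0.36.

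Of 18 tested mitosis markers all 18 were called higher in pLN d12 TFR than in Treg cells, and 18 in TFH than in naive T cells, with medians of 3.06 and 4.22. In PP 10 of the 18 were called higher in TFR than in Treg cells, and 16 were called lower in PP than in pLN d12 TFR cells. Of 10 tested regulators of the step from G1 to S phase, 6 were called higher in TFR against Treg cells of pLN d12, 2 in PP, and 6 lower in PP than in pLN TFR cells. The largest in pLN d12 were E2f8, a repressor of the E2F family (3.65 ± 0.55, adjusted p = 0.0023), E2f1, an activator of the family (2.38 ± 0.35, adjusted p = 0.00216), and Ccne1, the cyclin that partners Cdk2 at the start of S phase (2.10 ± 0.22, adjusted p = 0.000368). In the comparison of TFR with TFH cells, where Rad51b was called in both tissues, 0 other replication, 0 other repair and 0 mitosis genes were called in either tissue, and of the G1 to S regulators Myb was called lower in PP TFR cells (-2.38 ± 0.26, adjusted p = 0.000593).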

How the data were processed

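RNA of sorted cells was measured on 20 single-colour Agilent arrays of 12 groups. Per the labels and methods, the authors extracted each feature's intensity with Agilent Feature Extraction 10.7.3.1, averaged the 4 features of each probe geometrically, applied quantile normalisation, and set the 75th percentile to 1500 and the floor to 20. The deposited scanner intensities were processed here in the same way and then taken to log2. Features whose pixels varied by over 0.5 (coefficient of variation) or that lay beyond 1.42 interquartile ranges were left out. The values differed from the log2 of the deposited ones by a median of 0.0347 to 0.0362 per array. A probe counted as well above background where at least 3 of its 4 features did, which held for 43.0% to 58.0% of the 39429 probes. The number of arrays limits the precision.

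One linear model over all 12 groups (limma 3.58.1, R 4.3.3, 8 residual degrees of freedom) was fitted to 22264 probes, with Benjamini-Hochberg adjustment over all of them, and was tested on simulated data. For d25, with 1 array a group, the spread of the other groups was used. Replicate numbers mark slides, so that arrays with the same number share a slide (consensus correlation of slide 0.742). The model had no block, and slide as a block was an alternative. Members and gene lists were chosen with earlier results of these data known, and the lists of markers, other replication, repair, mitosis and G1 to S genes are given as counts. Named members were, in each role, the 2 with the largest and the 1 with the smallest absolute log2 difference between pLN d12 TFR and Treg cells, and members called in a test between tissues. Pcna, Pole2 and Xpc were added after their values were seen. From other lists at most the 3 largest called changes were named. Alternatives were the deposited values, scaling without quantile normalisation, normexp background correction, no filter, slide as a fixed or random block, no slide 4, only the compared groups, the mean of all probes of a gene, and each replicate left out. Promoters came from RefSeq. Further arrays of the study were not analysed here.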

Additional observations from a re-analysis of the deposited data

Results flagged for a closer look

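One result stood out because a test of the difference between the tissues passed the threshold. For Fancd2, the log2 difference between TFR and Treg cells in PP minus that in pLN d12 was -3.13 ± 0.45 (SE, adjusted p = 0.0168 by limma, n = 2 arrays in each of 4 groups). Both TFR arrays of pLN d12 were above background and both Treg arrays were not, while all 8 PP arrays were above background, so the size depends on a level that is only bounded (-2.07 with the bound). The call was lost under 7 of 25 alternatives. Tissue and slide cannot be told apart.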

How the results depend on the processing

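The unit of these values is the number of members called. With only the compared groups in the fit, counts were 19 (all groups 32) for pLN d12 TFR against Treg, 10 (31) for TFR PP against pLN and 0 for Treg against naive T, TFR against TFH in either tissue, PP TFR against Treg, GL7+ TFH against Treg, TFH PP against pLN, Treg PP against pLN and the tissue difference of TFR against Treg. The smaller number of arrays leaves few degrees of freedom there, and for both d25 comparisons none. With slide as a fixed block (the replicate block, since replicates lie on slides), counts were 10 (5) for Treg against naive T, 2 (1) for pLN TFR against TFH and 12 (1) for the tissue difference, and the block moved no other count of these comparisons by over 1.5 times. It could not be fitted between slides. As a random block the counts were 12, 5 and 13 for the same comparisons, 10 (6) for PP GL7+ TFH against Treg, 3 (13) for TFH, 17 (31) for TFR and 0 (2) for Treg PP against pLN. Without slide 4 they were 8 (14) for PP TFR against Treg, 0 for TFH and for Treg PP against pLN, 0 for the tissue difference and 10 (28) for the F test. Without the filter on dim probes they were 2 for Treg against naive T, 9 for PP TFR against Treg, 2 for PP GL7+ TFH against Treg, 8 for TFH and 0 for Treg PP against pLN. With normexp they were 3 for Treg against naive T, 2 for pLN TFR against TFH and 1 for Treg PP against pLN, the last also being 1 under 75th percentile scaling and 0 with the deposited values. The cause of these shifts was not tested. Shares over all probes were given only for some of the block fits, not for the other alternatives or those without a replicate. A change in a member count may therefore hold for all probes alike.

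Leaving out each replicate in turn gave 24 to 28 for TFH against naive T, 1 to 8 for Treg against naive T, 24 to 34 for TFR against Treg and 0 to 1 for TFR against TFH in pLN d12, 16 to 21 and 18 to 23 for TFH against naive T and TFR against Treg at d25, and 3 to 18, 0 to 11 and 1 to 1 for TFR against Treg, GL7+ TFH against Treg and TFR against TFH in PP. For PP against pLN it gave 0 to 1 in Treg, 1 to 16 in TFH and 14 to 32 in TFR cells, 0 to 1 for the tissue difference and 20 to 27 for the F test. Over all alternatives no called member changed direction, and 576 of 4288 repeated calls were lost.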
